A study of Mus musculus with 23 samples.

Results

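The genes of the AP-1 transcription factor were followed through RNA-seq counts of primary murine embryonic fibroblasts (MEFs). The members were 4 Fos genes (Fos, Fosb, Fosl1 and Fosl2), 3 Jun genes (Jun, Junb and Jund) and Atf3, a dimer partner of Jun proteins. They were chosen by name, as the genes of the count table whose Ensembl identifiers carry these 8 mouse symbols. The rule itself uses no measured value, but it was set with earlier results of these data known. The table held 55487 genes, 15748 of them passed the filter on low counts, and all 8 members were among these.

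The cells came from E13.5 embryos of intercrossed heterozygous FVB/NJ mice and were homozygous for 1 of 4 versions of the glucocorticoid receptor (GR). These were the unmodified receptor (GRwt/wt), a missense change in its DNA-binding domain (GRD/D), a missense change within the ligand-binding domain (GRL/L), and both changes on 1 allele (GRD+L/D+L). The GRL and GRD+L alleles had been made by CRISPR/Cas9 in zygotes that carried a GRD allele. Cultures were kept for 5 h in medium with 10 nM dexamethasone (Dex), a synthetic GR ligand, or with solvent (vehicle), and the medium also contained serum. Each of the 8 groups had 3 libraries from cultures of different mice, except GRD/D vehicle with 2, which gave 23 libraries.

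AP-1 is a family of dimers formed through leucine zippers. Fos proteins cannot pair with each other and need a Jun partner to bind DNA, whereas Jun proteins can also pair among themselves. Fos, Fosb, Jun and Junb are classical immediate early genes that serum and growth factors switch on within minutes, while Jund is present in resting cells, and Fosl1 and Fosl2 follow later. In fibroblasts, AP-1 drives proliferation and the expression of matrix proteases, and ligand-bound GR is known to hold back AP-1 at some of these genes by contact with Fos and Jun proteins. Such contact need not alter the transcript levels of the AP-1 genes, which are what was counted here.

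All 8 genes have a position in the GENCODE M21 annotation of GRCm38. Fos (ENSMUSG00000021250) lies on chromosome 12 from 85473890 to 85477273 and Fosb (ENSMUSG00000003545) on chromosome 7 from 19302696 to 19310051. Fosl1, which encodes Fra-1, (ENSMUSG00000024912) lies on chromosome 19 from 5447547 to 5455946, and Fosl2, which encodes Fra-2, (ENSMUSG00000029135) on chromosome 5 from 32135801 to 32157842. Jun (ENSMUSG00000052684) was found on chromosome 4 from 95049034 to 95052222, and both Junb (ENSMUSG00000052837, 84974484 to 84978718) and Jund (ENSMUSG00000071076, 70698949 to 70700616) on chromosome 8. Atf3 (ENSMUSG00000026628) spans 191170296 to 191218039 on chromosome 1. Fos, Fosl1, Fosl2 and Jund are on the plus strand and the other members on the minus strand. Exons of 4 members overlap a gene on the opposite strand, namely Jund with Gm11175 over 877 bases, Fosl1 with Ccdc85b over 1163, Jun with Junos over 232 and Junb with Prdx2 over 173. Whether counting used strand was not given in the sources used here, so counts of these 4 genes are uncertain to that extent.

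Promoter windows from 250 bases before to 50 bases after the transcription start, taken from RefSeq on GRCm38.p6, were found for 7 of the 8 members, all except Fosl1. They are shown for Jun, Fos and Atf3, where letters of the cyclic AMP response element (CRE) family, to which AP-1 and its relatives bind, were found. Positions count back from the start, with -1 as the last base before it, and capitals mark the matched letters in the orientation of the gene.
Jun promoter, chr4:95052240-95052287, minus strand: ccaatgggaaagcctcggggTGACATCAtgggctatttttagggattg
Fos promoter, chr12:85473804-85473849, plus strand: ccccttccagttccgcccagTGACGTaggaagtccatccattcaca
Atf3 promoter, chr1:191183334-191183361, minus strand: tggaagctattaatagcattACGTCAgc
In the Jun promoter, TGACATCA, the CRE-like form known from this gene, stood at -45 to -38, and 3.62% of 32851 mouse promoter windows of this length held it on either strand. The Fos promoter held TGACGT, the core of the CRE, at -66 to -61, and the Atf3 window held the same core on the other strand at -8 to -3. This core was found in 7.51% of all windows. The starts that RefSeq gives for Atf3 and Fosl2 lie inside the spans of these genes in GENCODE, and the window of Jund ends at 70697788, before the gene's start there.
None of the 7 windows held the letters of the AP-1 site TGACTCA (5.20% of all windows), the full CRE TGACGTCA (1.79%), the CArG box bound by SRF (1.63%), the palindromic glucocorticoid response element (0.00913%) or its repeated unit AGAACA (19.0%), on either strand. A match or its absence describes these windows only.

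Depth ranged from 16452539 to 23117080 counts per library. All 8 markers of fibroblasts were detected in every library (summed level 32729 to 57196 CPM, counts scaled by the TMM-adjusted library total), whereas the summed levels of 6 epithelial and 4 endothelial markers reached at most 5.79 and 20.8 CPM, and those of 4 markers of skeletal muscle reached 19.5 CPM except in GRwt/wt replicate 1, with 210.1 in vehicle and 140 with Dex. A pair of GRwt/wt vehicle libraries stood apart. Replicate 1 had at most a Spearman correlation of 0.916 with any other library, and its deviations from the typical level of each gene rose with transcript GC content (rho 0.688, against -0.196 to 0.323 elsewhere). Replicate 3 held 4523 CPM summed over 8 macrophage markers, against 14.9 to 92.0 in the other GRwt/wt libraries, and its nearest library carried a different genotype label (GRD/D Dex replicate 2). In bulk RNA, fewer cells of a type and less RNA per cell cannot be told apart.

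The order of the AP-1 genes was compared per length of exon, as CPM per kilobase. Jund stood first, with a median of 51.1 CPM per kilobase over the 23 libraries (42.0 to 111). Jun followed with 27.0 (18.8 to 58.3), Fosl2 with 22.0 (16.3 to 35.3) and Junb with 17.0 (10.0 to 25.5). A wide step led to Fos with 6.11 (3.24 to 9.48), Atf3 with 3.97 (0.573 to 27.4) and Fosl1 with 3.86 (1.33 to 11.6), and Fosb came last with 0.690 (0.505 to 1.17). Hence the Jun genes made up most of the signal, with a median of 71.0% of the summed level per length of the 8 genes (67.0% to 84.3%), whereas the 4 Fos genes contributed 24.9% (14.4% to 28.7%).
Several neighbours in this order were well separated. Junb lay above Fos and Fosl1 above Fosb in 23 of 23 libraries, Fosl2 above Junb in 22 and Jund above Jun in 21. Jun exceeded Fosl2 in 19 libraries and Fos exceeded Atf3 in 16, while Atf3 was above Fosl1 in only 11, so that the last pair had no order beyond its spread. The lowest count in any library was 27 for Atf3, 55 for Fosl1 and 58 for Fosb.

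**Figure D1:**
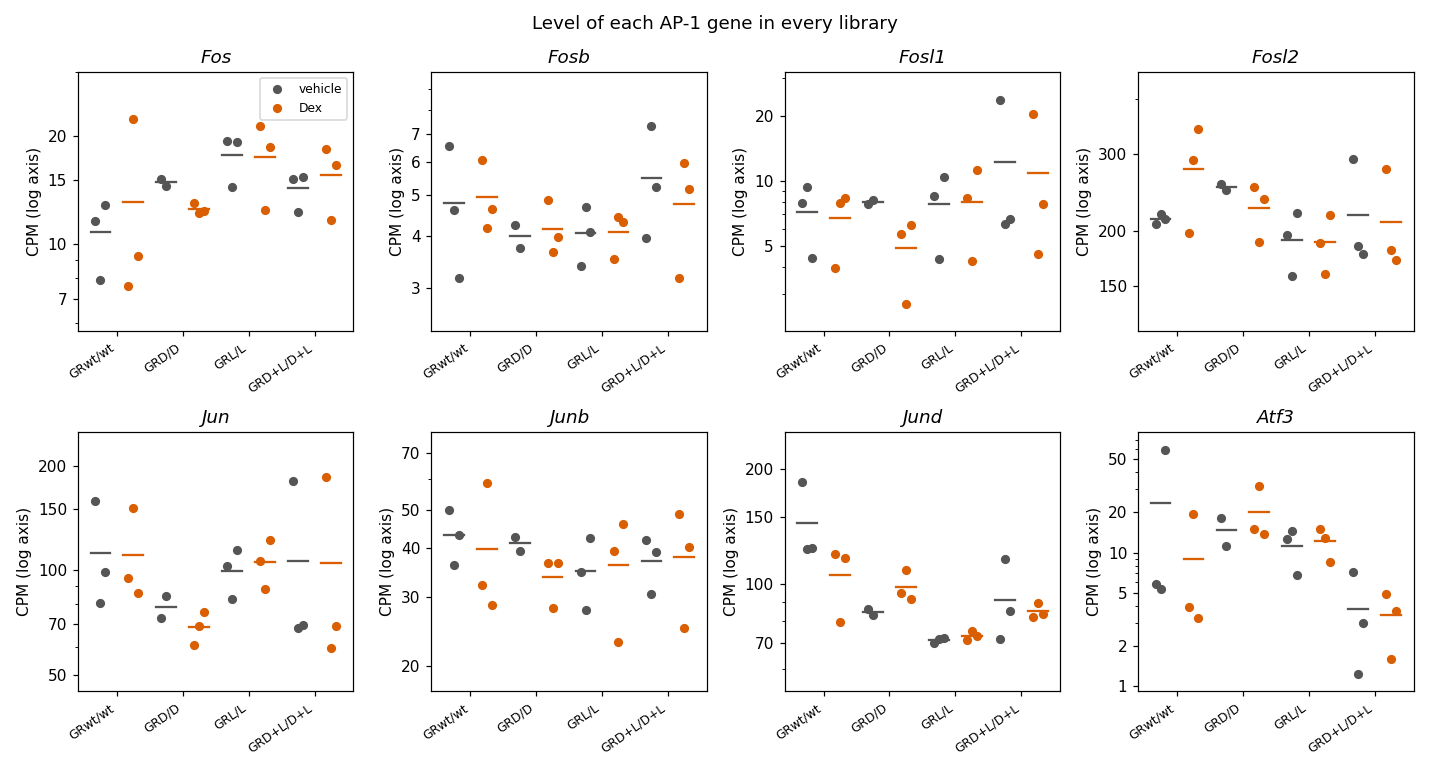
Level of each AP-1 gene in CPM (log axis) in every library, by GR genotype, with vehicle in grey and 10 nM Dex in orange; points are libraries and bars are group means. Jund ran from 124 to 186 CPM in GRwt/wt vehicle and from 70.1 to 72.2 CPM in GRL/L vehicle, and Atf3 reached 59.1 CPM in 1 GRwt/wt vehicle library.

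The treatment was active in GRwt/wt cells. Fkbp5, a GR target that encodes a chaperone of the receptor, went from 31.0 ± 12.9 CPM (SD, n = 3) in vehicle to 348 ± 36.9 (n = 3) with Dex, a log2 fold change (LFC) of 3.49 (SE 0.27, adjusted p 2.67e-06). Tsc22d3, which encodes the anti-inflammatory protein GILZ, rose as well (LFC 1.92, SE 0.27, adjusted p 0.00272). Both fell short of the threshold in a fit restricted to GRwt/wt (adjusted p 0.456). Dusp1, a phosphatase of the MAP kinases that activate AP-1, had an LFC of 0.98 (SE 0.19, adjusted p 0.0335), just under the fold used for calls. Its adjusted p was 0.0918 and 0.121 without GRwt/wt Dex replicate 1 or 2 and 0.0753 without the expression filter. It was 0.97 in the fit restricted to GRwt/wt and 0.00635 with the replicate block. The LFC of Fkbp5 with Dex was 1.68 (SE 0.29, adjusted p 0.137) in GRD/D, 0.07 in GRD+L/D+L and 0.12 in GRL/L.

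None of the 8 AP-1 genes was called for Dex in GRwt/wt. A call required an absolute LFC of 1 or more together with an adjusted p not above 0.05, by the quasi-likelihood test of edgeR, and 0.159% of all tested genes were called in this comparison. DESeq2 called 0 of the 8 as well, beside 279 of the 29375 genes it tested (0.95%). The number of genes called by edgeR, 25 here, depended on the vehicle libraries, with 75, 374 and 95 called without replicate 1, 2 and 3. Of the members, 1 of the 8, Jund, had an unadjusted p under 0.05, against 15.6% of all tested genes. The LFCs of the members had a median of -0.06, beside -0.01 over all tested genes.

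Among the Fos genes, Fos itself, the prototype of the immediate early genes, measured 11.5, 7.89 and 12.8 CPM in the GRwt/wt vehicle libraries and 7.63, 22.3 and 9.24 with Dex. A single Dex library was high, the other Dex libraries lay within or just under the vehicle range, and the LFC was 0.28 (SE 0.32, 95% interval -0.38 to 0.95, adjusted p 0.695). Fosl2, the most abundant Fos gene, was at 207, 219 and 213 CPM in vehicle and at 198, 291 and 342 with Dex. Here 2 of the 3 Dex libraries were above all vehicle libraries and 1 was below them, with an LFC of 0.38 (SE 0.23, 95% interval -0.11 to 0.86, adjusted p 0.453). Fosl1 ranged from 4.39 to 9.34 CPM in vehicle and from 3.94 to 8.30 with Dex (LFC -0.10, SE 0.58), and Fosb, another early serum-response gene, from 3.17 to 6.56 and from 4.17 to 6.06 (LFC 0.05, SE 0.29).

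The Jun genes showed a similar picture. Jun, the main partner of Fos, measured 159, 80.6 and 98.7 CPM in vehicle and 95.2, 152 and 86.1 with Dex. These ranges overlapped almost in full, and the LFC was -0.02 (SE 0.41, 95% interval -0.88 to 0.84, adjusted p 0.985). Junb, a weaker activator than Jun, measured 50.1, 36.3 and 43.3 CPM in vehicle and 32.2, 58.7 and 28.6 with Dex (LFC -0.12, SE 0.29, adjusted p 0.866).
Jund was the only member with separate ranges. It had 186, 124 and 124 CPM in vehicle and 120, 79.6 and 117 CPM with Dex, so every Dex library was below every vehicle library. The LFC was -0.45 (SE 0.18, 95% interval -0.84 to -0.07), with an unadjusted p of 0.0229 and an adjusted p of 0.248, and it was -0.23 (adjusted p 0.587) without vehicle replicate 1 and -0.11 (adjusted p 0.727) when transcript GC content and length were corrected for.
Atf3, a stress-induced repressor, measured 5.79, 5.32 and 59.1 CPM in vehicle and 3.89, 19.6 and 3.25 with Dex. The library with 59.1 CPM was vehicle replicate 3, which also carried the macrophage markers. With all libraries the LFC was -1.39 (SE 0.85, 95% interval -3.19 to 0.41, adjusted p 0.457), and without that library it was 0.73 (adjusted p 0.545), in the other direction.

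Single libraries set the sign of most of these values. With 1 library left out at a time, the LFC of Fos ranged from -0.35 (without Dex replicate 2) to 0.58 (without Dex replicate 1), that of Jun from -0.31 (without Dex replicate 2) to 0.31 (without vehicle replicate 1), and that of Junb from -0.50 (without Dex replicate 2) to 0.07 (without Dex replicate 3). Fosb ranged from -0.13 (without vehicle replicate 3) to 0.35 (without vehicle replicate 1), Fosl1 from -0.32 (without vehicle replicate 3) to 0.20 (without Dex replicate 1), and Atf3 from -2.71 (without Dex replicate 2) to 0.73. Only Fosl2 (0.20 to 0.60) and Jund (-0.57 to -0.23) kept their direction in all of these fits. The GRwt/wt Dex replicate 2 library was the highest of the 6 GRwt/wt libraries for Fos and Junb and the lowest for Jund.

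**Figure D2:**
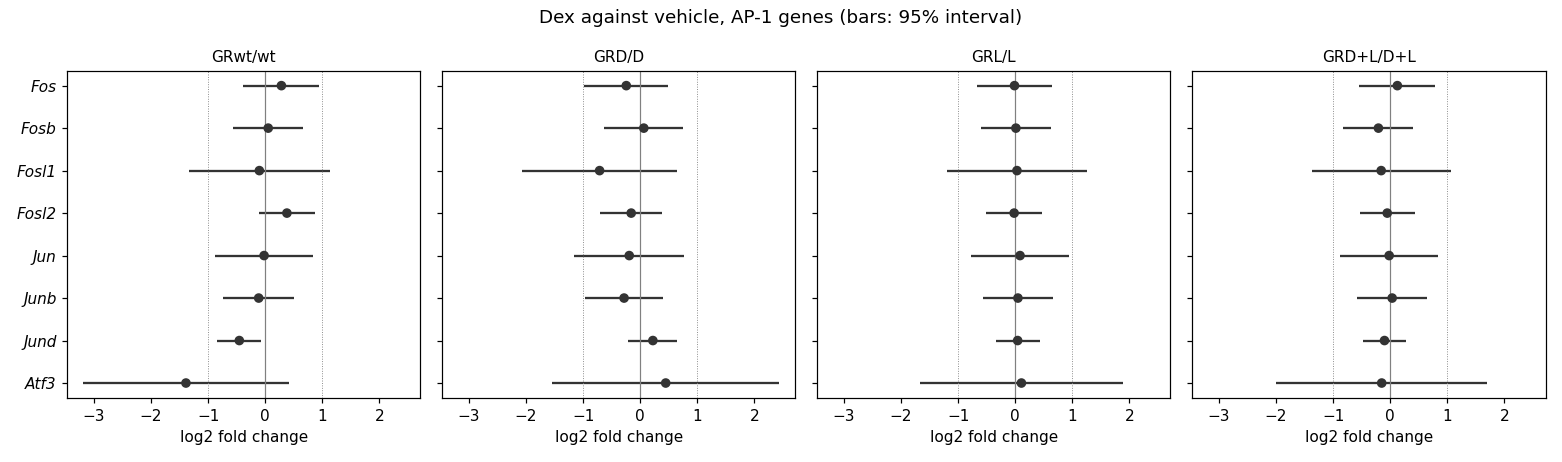
LFC of Dex against vehicle for each AP-1 gene in the 4 genotypes; points are estimates, bars are 95% intervals from the edgeR fit, and dotted lines mark an absolute LFC of 1. In GRL/L all estimates lay between -0.02 and 0.11, and in GRwt/wt they lay between -1.39 and 0.38.

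In the mutants, too, 0 of the 8 genes were called for Dex by edgeR or DESeq2, and 0 had an unadjusted p under 0.05. Over all tested genes, 0.0% were called in GRD/D, 0.0% in GRD+L/D+L and 0.0% in GRL/L, while DESeq2 called 2 genes (0.00681%) in GRD/D, 5 (0.017%) in GRD+L/D+L and 0 (0.0%) in GRL/L. The LFCs of the members lay between -0.71 (Fosl1) and 0.45 (Atf3) in GRD/D, between -0.02 (Fosl2) and 0.11 (Atf3) in GRL/L, and between -0.21 (Fosb) and 0.12 (Fos) in GRD+L/D+L. With 1 library left out at a time, none of these values was called, but the limits widened to -0.93 (Fosl1, without GRD/D Dex replicate 3) and 0.83 (Atf3, without GRD/D vehicle replicate 1) in GRD/D. They widened to -0.30 and 0.33 in GRL/L, both for Fosl1 (without Dex replicate 3 and 2), and to -0.97 and 0.75 in GRD+L/D+L, again for Fosl1 (without replicate 1 of Dex and of vehicle). With all libraries, their median absolute LFC was 0.23 in GRD/D, 0.11 in GRD+L/D+L and 0.03 in GRL/L, beside 0.12, 0.08 and 0.06 over all tested genes. The 95% intervals, from a fit that does not pair the libraries and so includes the spread between cultures, were for example -0.78 to 0.95 for Jun and -0.68 to 0.65 for Fos in GRL/L. For Jun, the log2 differences of Dex and vehicle between GRL/L libraries of the same number were 0.049, 0.10 and 0.098.

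The difference between the Dex response of a mutant and that of GRwt/wt was called for 0 of the 8 members in each of the 3 mutants, by edgeR and by DESeq2, beside 0.0% of all tested genes for GRD/D, 0.0254% for GRL/L and 0.0254% for GRD+L/D+L by edgeR, and 0.034%, 0.0647% and 0.0647% by DESeq2. These comparisons share the GRwt/wt libraries. An unadjusted p under 0.05 was found for 1 member in GRD/D and for 0 in the other mutants, beside 7.11% of all tested genes in GRD/D, 5.05% in GRD+L/D+L and 6.29% in GRL/L. That member was Jund, which measured 86.4 and 82.8 CPM in GRD/D vehicle and 95.1, 109 and 91.5 CPM with Dex. In GRD/D, therefore, every Dex library was above both vehicle libraries, opposite to GRwt/wt, and the difference of the LFCs was 0.67 (SE 0.28, 95% interval 0.10 to 1.25, adjusted p 0.688). The difference was 0.45 (adjusted p 0.61) without GRwt/wt vehicle replicate 1.

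In both mutants that carry the L change, the AP-1 levels of the vehicle and Dex libraries followed the culture. The replicate numbers could be used there, because libraries with the same number deviated together from their group means in GRL/L (correlations 0.322 to 0.644) and in GRD+L/D+L (0.652 to 0.887). In GRD+L/D+L, Fosl1, the late-responding Fra-1 gene, measured 23.6, 6.31 and 6.65 CPM in vehicle and 20.3, 4.60 and 7.86 with Dex. Jun measured 181, 68.2 and 69.5 CPM in vehicle and 186, 59.9 and 68.9 with Dex, and Fosl2 measured 292, 184 and 178 in vehicle and 277, 181 and 172 with Dex. Replicate 1 was thus high for these 3 genes in both treatments. For Fosl1, the highest vehicle library exceeded the lowest 3.74-fold and the highest Dex library the lowest 4.41-fold.
The cultures of GRL/L kept their order in the same way over a smaller range. Fosl1 was at 8.55, 4.36 and 10.4 CPM in vehicle and at 8.35, 4.26 and 11.2 with Dex, and Jun was at 103, 82.4 and 115 and at 106, 88.5 and 123. The 3 cultures had the same order in vehicle and in Dex for 6 of the 8 genes in GRL/L. This held for 7 of the 8 in GRD+L/D+L and for 1 of 8 in GRwt/wt. There, libraries with the same number deviated together only for replicate 1 (correlation 0.548, against 0.0266 and -0.0265). Between libraries with the same number, the median absolute log2 difference of Dex and vehicle over the 8 genes was 0.20 in GRD+L/D+L and 0.08 in GRL/L, and it did not exceed 0.53 and 0.33, both for Atf3. A fit with the replicate number as a block within each genotype called 0 of the 8 genes in each Dex comparison. Over all tested genes it called 199 (1.26%) in GRwt/wt, 7 (0.0445%) in GRD/D and 0 (0.0%) in both other mutants.

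**Figure D3:**
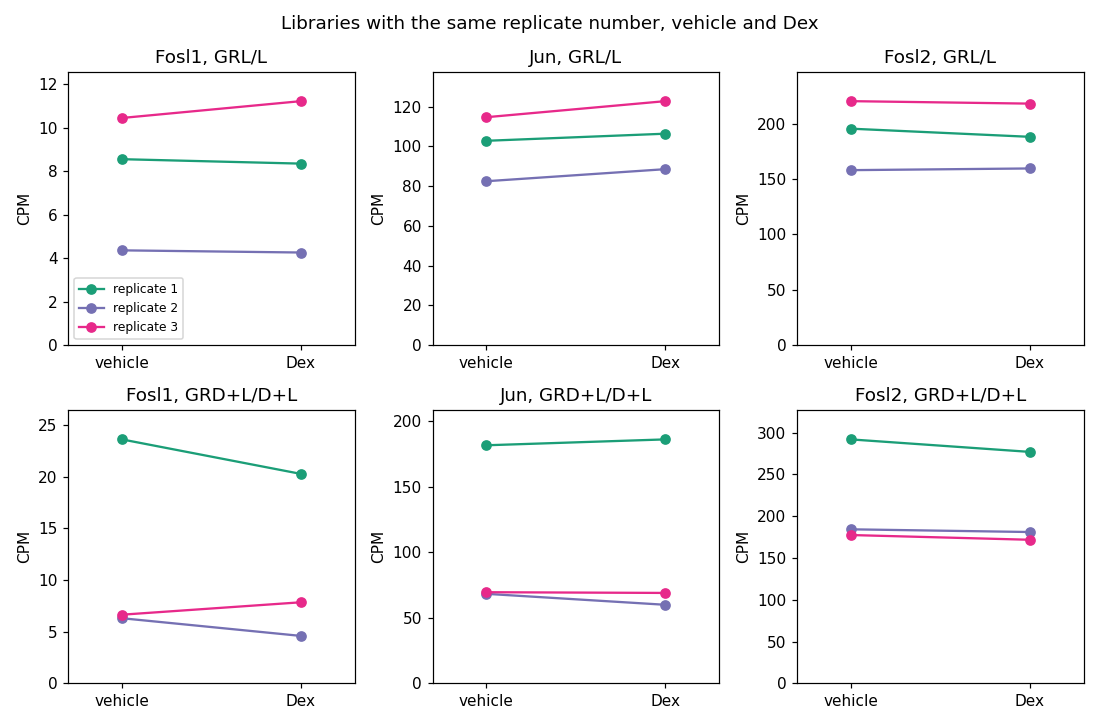
CPM of Fosl1, Jun and Fosl2 in the vehicle and Dex libraries of GRL/L (top) and GRD+L/D+L (bottom), with lines that join libraries of the same replicate number. Replicate 1 of GRD+L/D+L was high in both treatments, with 23.6 and 20.3 CPM of Fosl1 against 4.60 to 7.86 CPM in the other cultures of that genotype.

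The mutants were then compared with GRwt/wt in vehicle, where 0.00635% of all tested genes were called in GRD/D, 8.32% in GRD+L/D+L and 7.78% in GRL/L. Of the 8 AP-1 genes, 0 were called in GRD/D, 1 in GRD+L/D+L and 1 in GRL/L, and 1 of 8 genes is close to that background. In GRD/D, DESeq2 also called 0, beside 0.0953% of all genes it tested, and 1 member (Jund) had an unadjusted p under 0.05, against 12.4% of all tested genes. Such a p was found for 2 members in GRD+L/D+L and 2 in GRL/L, against 35.6% and 37.1%.
Jund, the Jun protein of resting cells, was the gene called in GRL/L. It measured 186, 124 and 124 CPM in GRwt/wt vehicle and 70.1, 71.7 and 72.2 CPM in GRL/L vehicle. The 3 GRL/L libraries were close together and far below each GRwt/wt library, and Jund was 2.03-fold lower (LFC -1.02, SE 0.18, 95% interval -1.41 to -0.63, adjusted p 0.00123). In GRD+L/D+L vehicle it measured 71.8, 116 and 85.3 CPM (LFC -0.67, SE 0.18, adjusted p 0.0183), and in GRD/D vehicle 86.4 and 82.8 CPM (LFC -0.77, SE 0.21, adjusted p 0.318). Thus all 8 mutant vehicle libraries were below all 3 GRwt/wt vehicle libraries. Without GRwt/wt vehicle replicate 1 the LFC was -0.43 (adjusted p 0.0721) in GRD+L/D+L and -0.55 (adjusted p 0.428) in GRD/D, and after the GC and length correction it was -0.22 (adjusted p 0.239) and -0.32 (adjusted p 0.37).
The GRL/L value stood at the edge of the fold used for calls. It was -0.80 (adjusted p 0.00255) without GRwt/wt vehicle replicate 1, where Jund stood at 186 CPM, and -0.99 without any 1 of GRD/D vehicle replicate 1 or 2, GRD+L/D+L vehicle replicate 1, GRD+L/D+L Dex replicate 1 or GRwt/wt Dex replicate 1, and none of these fits called it. DESeq2 gave -0.98 (adjusted p 2.76e-06). Corrected for the GC content and length of transcripts, it was -0.44 (adjusted p 0.0233). Jund transcripts have 67.1% GC, the highest value of the 8 members, and over the 23 libraries its level had a Spearman correlation of 0.684 with the GC dependence of the library. This correlation is a description over libraries that share genotypes and cultures, and the part of GC content in the result was not tested beyond the correction.

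Atf3 was the gene called in GRD+L/D+L vehicle, with 7.15, 1.23 and 3.00 CPM against 5.79, 5.32 and 59.1 in GRwt/wt vehicle. The ranges overlapped, since GRD+L/D+L replicate 1 was above 2 of the GRwt/wt libraries. The LFC was -2.63 (SE 0.90, adjusted p 0.0466), and it was -0.50 (adjusted p 0.634) without GRwt/wt vehicle replicate 3. The call was also lost without GRD+L/D+L vehicle replicate 2 (-2.20, adjusted p 0.158) or replicate 3 (-2.49, adjusted p 0.134), and in 13 fits that left out another library the adjusted p moved just past the threshold (0.0512 to 0.0615).
In GRL/L and GRD/D vehicle, Atf3 measured 12.6, 14.5 and 6.83 CPM and 18.3 and 11.1 CPM. All of these were above GRwt/wt vehicle replicates 1 and 2 and below replicate 3, with an LFC of -1.05 (adjusted p 0.375) in GRL/L and -0.67 (adjusted p 0.718) in GRD/D. Without GRwt/wt vehicle replicate 3 both values turned positive, to 1.06 (adjusted p 0.278) and 1.45 (adjusted p 0.24).
The level of Atf3 moved with that of the 8 macrophage markers (Lyz2, Csf1r, Adgre1, Cd68, Fcgr1, Ptprc, Tyrobp and C1qa). Their summed level was 15.9 to 4523 CPM in GRwt/wt vehicle, 14.9 to 92.0 in GRwt/wt Dex, 248 to 1550 over the GRD/D libraries, 277 to 695 over those of GRL/L and 5.81 to 76.4 over those of GRD+L/D+L. The 2 libraries with the lowest sums, GRD+L/D+L replicate 2 in vehicle and in Dex (6.77 and 5.81 CPM, with 3 of the 8 markers at 0 counts), also had the lowest Atf3 (1.23 and 1.61 CPM), and the library with the highest sum had the highest Atf3. An exception was GRwt/wt Dex replicate 2, where Atf3 was the third highest (19.6 CPM) at a sum of 92.0 CPM, below that of every GRD/D and GRL/L library. The Spearman correlation of Atf3 with the summed markers was 0.883 over the 23 libraries, which share genotypes and cultures. For the other 7 members it lay between -0.605 (Fosb) and 0.384 (Fos). The part of macrophage RNA in the Atf3 values was not tested.

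**Figure D4:**
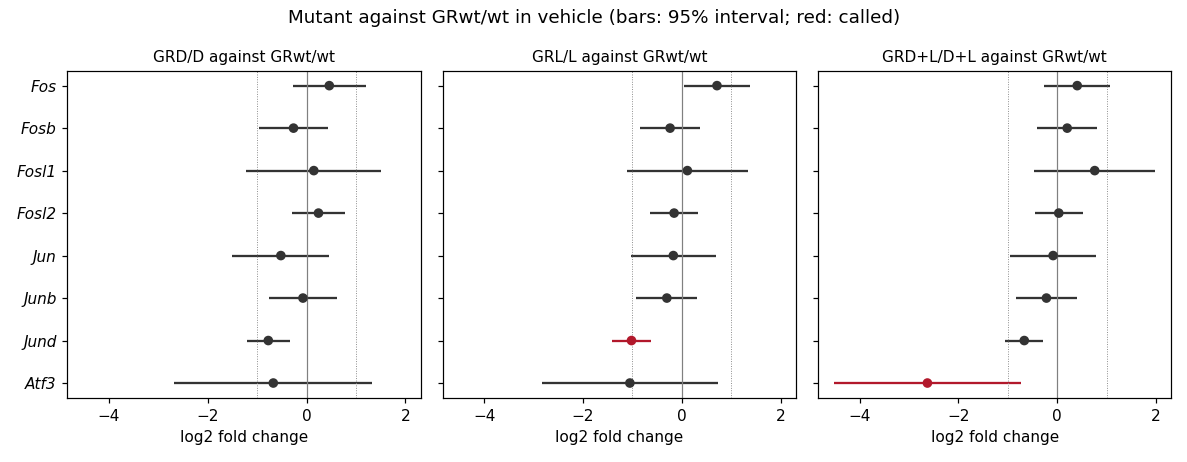
LFC of each mutant against GRwt/wt in vehicle for the 8 AP-1 genes, with 95% intervals from the edgeR fit; red marks called genes and dotted lines an absolute LFC of 1. Jund in GRL/L (-1.02) and Atf3 in GRD+L/D+L (-2.63) were called, and the Jund estimates were negative in all 3 mutants.

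The remaining members showed no call in vehicle. Fos was higher on average in each mutant, with 19.3, 14.4 and 19.2 CPM in GRL/L, 15.1 and 14.5 in GRD/D, and in the double mutant GRD+L/D+L 15.1, 12.3 and 15.4, against 11.5, 7.89 and 12.8 in GRwt/wt. The GRL/L and GRD/D libraries were all above the GRwt/wt libraries, whereas 1 GRD+L/D+L library was within their range. The LFC was 0.71 (SE 0.32, 95% interval 0.04 to 1.38, adjusted p 0.112) in GRL/L, 0.46 (SE 0.35, adjusted p 0.55) in GRD/D and 0.41 (SE 0.32, adjusted p 0.365) for the GRD+L/D+L cells. In GRL/L it reached 1.05 (adjusted p 0.0348) after the GC and length correction. For the 6 members other than Jund and Atf3, the smallest adjusted p in vehicle over the 3 mutants was this 0.112.

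With Dex in the medium of both genotypes, 0.254% of all tested genes were called in GRD/D against GRwt/wt, 2.59% in GRL/L and, for the double mutant GRD+L/D+L, 2.75%. None of the 8 AP-1 genes was called in any of these comparisons by edgeR or by DESeq2, which called 0.963%, 2.65% and 2.76% of all genes it tested. In the same order, 0, 2 and 0 members had an unadjusted p under 0.05, against 11.1%, 22.7% and 20.9% of all tested genes. The 2 were Fosl2 and Jund in GRL/L. Jund measured 71.3, 75.5 and 73.4 CPM in GRL/L Dex and 120, 79.6 and 117 in GRwt/wt Dex, so the groups did not overlap (LFC -0.52, SE 0.18, adjusted p 0.101). Fosl2 measured 188, 159 and 218 CPM in GRL/L Dex and 198, 291 and 342 in GRwt/wt Dex, and here they overlapped (LFC -0.56, SE 0.23, adjusted p 0.162).
Fos measured 21.3, 12.4 and 18.6 CPM in GRL/L Dex against 7.63, 22.3 and 9.24 in GRwt/wt Dex, with an LFC of 0.42 (SE 0.32, adjusted p 0.451). It was called without GRwt/wt Dex replicate 2, the library with 22.3 CPM, where the LFC was 1.05 (adjusted p 0.0236). Atf3 had an LFC of 1.16 (adjusted p 0.732) in GRD/D Dex, 0.45 (adjusted p 0.785) in GRL/L Dex and -1.39 (adjusted p 0.383) in GRD+L/D+L Dex. Without GRwt/wt Dex replicate 2, where Atf3 stood at 19.6 CPM, these values were 2.48 (adjusted p 0.405), 1.77 (adjusted p 0.267) and -0.066 (adjusted p 0.979).

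The spread of the members between libraries of a group differed widely. On the log2 scale, the within-group SD was 0.22 for Jund, 0.29 for Fosl2, 0.34 for Fosb, 0.38 for Junb, 0.40 for Fos, 0.52 for Jun, 0.76 for Fosl1 and 1.10 for Atf3, beside a median of 0.39 over all tested genes. Atf3 was at the 94.0th percentile of all tested genes and Jund at the 27.4th. The highest library exceeded the lowest 47.8-fold for Atf3 and 8.72-fold for Fosl1, but 2.65-fold for Jund and 2.17-fold for Fosl2.
Over the 23 libraries, Fosl1 and Jun (Spearman 0.594), Jun and Junb (0.594) and Fos and Junb (0.524) varied in the same direction, whereas Fos and Jund varied in opposite directions (-0.802). With the group means removed, the value for Fos and Jund was -0.461, for Jun and Junb 0.747 and for Fosl1 and Jun 0.652. These correlations are descriptions, since the libraries share cultures, genotypes and RNA quality. The genes whose pattern was most like that of a member were picked by the highest Spearman correlation over the 23 libraries. For Fos, they included Egr1 (0.901) and Egr2 (0.855), and Ier2 stood first for Junb (0.851). Egr1, Egr2 and Ier2 are immediate early genes. For Fosl1 they were Ugt1a6b (0.853), Hbegf (0.852) and Slc20a1 (0.841), for Jun Pkp4 (0.909), Pax1 (0.904) and Mab21l1 (0.892), and for Fosl2 Lpin3 (0.892), Pon3 (0.871) and Serpina3m (0.867). Junb was followed by Tnfrsf12a (0.816) and Tcf7 (0.757). Fosb was nearest to A930004D18Rik (0.91), Hspa1b (0.861) and Fnta (0.859), and Jund to Rab1b (0.925), Rhog (0.911) and Myl6 (0.909). Atf3 was nearest to Adam8 (0.927), Ms4a6c (0.922) and Gpnmb (0.919), genes known from macrophages.

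**Figure D5:**
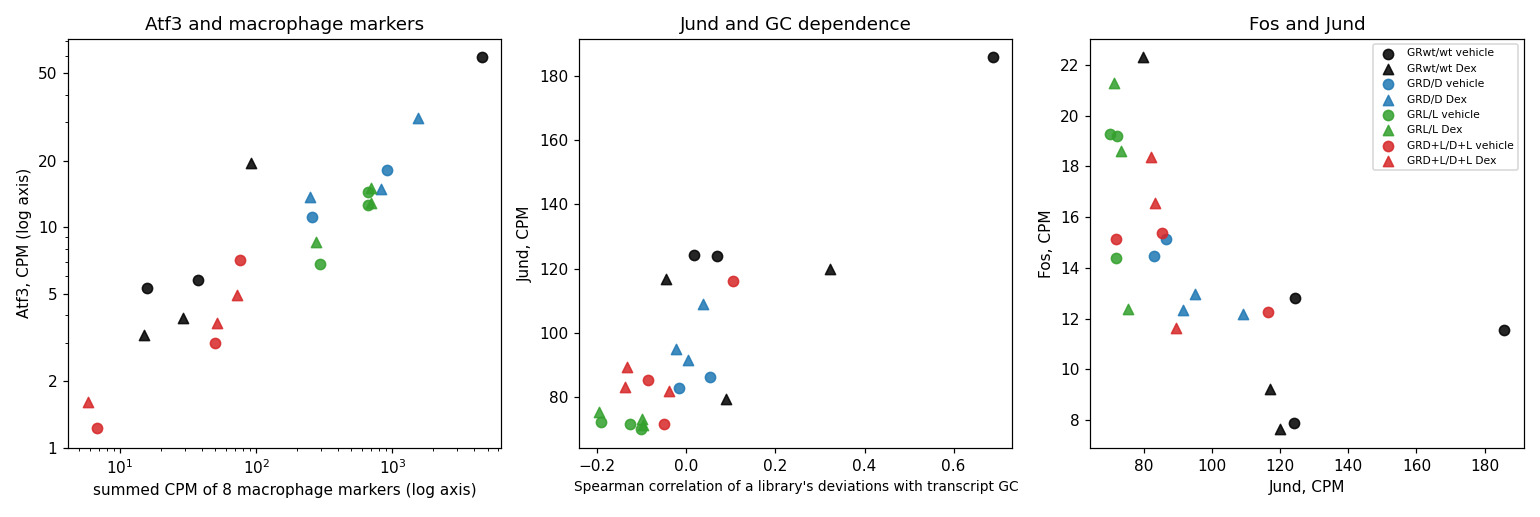
Levels over the 23 libraries, with colour for genotype, circles for vehicle and triangles for Dex: Atf3 in CPM against the summed CPM of 8 macrophage markers (both axes log), Jund in CPM against the Spearman correlation of a library's deviations with transcript GC content, and Fos against Jund, both in CPM. Atf3 rose with the markers (Spearman 0.883), Jund with the GC dependence (0.684), and Fos was low where Jund was high (-0.802).

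The genes around AP-1 were followed with 4 lists, of other bZIP partners (20 of 22 tested), of kinases and factors upstream of AP-1 (21 of 22), of other immediate early genes (20 of 20) and of known AP-1 target genes (18 of 18). None of these genes was called for Dex by edgeR in any of the 4 genotypes, nor for a difference of the Dex response. Some other fits called AP-1 targets lower with Dex in GRwt/wt. These were Plaur by DESeq2 (LFC -1.28, adjusted p 0.0189), Plaur (-1.19, adjusted p 0.0432) and Ccl2 (-1.60, adjusted p 0.0499) with the replicate block, and Plaur (-1.63, adjusted p 0.0153) and Plau (-2.0, adjusted p 0.0289) by edgeR without vehicle replicate 2. That last fit keeps both vehicle libraries that stand apart, with 37.2 and 4523 CPM of summed macrophage markers against 14.9 to 92.0 with Dex. Without vehicle replicate 3, which held the 4523 CPM, the LFC was -0.73 (adjusted p 0.176) for Plaur, -0.058 (adjusted p 0.923) for Plau and -1.41 (adjusted p 0.227) for Ccl2. The part of macrophage RNA in these values was not tested. In GRwt/wt the replicate block rests on numbers under which only the libraries of replicate 1 deviated together. Of all genes that each tested there, the block called 199 (1.26%) and DESeq2 279 (0.95%). Plaur encodes the urokinase receptor, Plau urokinase and Ccl2 a chemokine, and the genes are named after their values were seen. In the edgeR fit of GRwt/wt, 2 of 20, 6 of 21, 3 of 20 and 5 of 18 genes of the lists had an unadjusted p under 0.05, against 15.6% of all tested genes. The median LFC of Dex in GRwt/wt was -0.08 for the bZIP partners, -0.00457 for the upstream genes, 0.10 for the immediate early genes and -0.40 for the AP-1 targets, beside -0.01 over all tested genes. For the AP-1 targets it was -0.27 in GRD/D, -0.03 in GRD+L/D+L and 0.00489 in GRL/L. Single AP-1 targets went both ways with Dex in GRwt/wt, from -1.92 (Mmp10) to 2.09 (Mmp3). Neither of these matrix metalloproteinase genes was called by edgeR.

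Of the 20 bZIP partners, 1 was called in GRL/L vehicle, beside 7.78% of all tested genes, and 0 in the other comparisons, where single alternatives called up to 1. Maff, a small Maf protein without an activation domain, fell from 10.1 ± 3.97 CPM (SD, n = 3) in GRwt/wt to 4.67 ± 1.60 (n = 3) in GRL/L (LFC -1.11, SE 0.32, adjusted p 0.0189). It was not called without GRL/L vehicle replicate 1 (adjusted p 0.0729) or 2 (0.0919) or without GRwt/wt vehicle replicate 1 (0.0882, LFC -0.77), and its LFC was -0.56 (adjusted p 0.182) after the GC and length correction.
Of the 21 upstream genes, 1 was called in GRL/L vehicle and 1 in GRD+L/D+L vehicle, beside 7.78% and 8.32% of all tested genes. These counts were 4 and 6 without GRwt/wt vehicle replicate 3, the library with the macrophage markers, and both were 0 without GRwt/wt vehicle replicate 1 and after the GC and length correction. The share of all tested genes called in those fits is not given here, so no background stands beside these counts. Mrtfb, a coactivator of SRF, was at 39.5 ± 12.2 CPM in GRwt/wt vehicle and rose to 85.1 ± 8.27 in GRL/L vehicle (LFC 1.11, SE 0.17, adjusted p 0.000416). Without GRwt/wt vehicle replicate 1 the LFC was 0.90, and after the GC and length correction it was 0.50, both under the fold for calls. Rps6ka1, the RSK1 kinase downstream of ERK, fell in GRD+L/D+L vehicle from 23.6 ± 8.17 to 9.85 ± 6.26 CPM (LFC -1.26, SE 0.41, adjusted p 0.0386). This call was lost without any 1 of 6 libraries, with an adjusted p of 0.11 without GRwt/wt vehicle replicate 3, 0.0621 without GRwt/wt vehicle replicate 1, 0.154 and 0.133 without replicates 2 and 3 of GRD+L/D+L vehicle, and 0.0563 and 0.0562 without GRD/D vehicle replicates 1 and 2.

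Of the 20 immediate early genes, 2 were called in GRL/L vehicle and 1 in GRD+L/D+L vehicle, beside 7.78% and 8.32% of all tested genes, and with Dex 2 were called in each, beside 2.59% and 2.75%. Over the alternatives the counts in vehicle ranged from 1 (without GRL/L vehicle replicate 3) to 4 (by DESeq2 and, among others, without GRwt/wt vehicle replicate 3) in GRL/L and from 0 to 2 for the double mutant. With Dex they ranged from 1 to 5 and from 0 to 3, both highest without GRwt/wt Dex replicate 2. These ranges stand without the share of all tested genes called in the same fits. The comparisons share the GRwt/wt libraries of each treatment. Egr3, a zinc-finger factor, was at 11.0 ± 1.51 CPM in GRwt/wt vehicle, 31.8 ± 12.4 in GRL/L vehicle (LFC 1.53, SE 0.40, adjusted p 0.0116), and GRD+L/D+L vehicle had 40.7 ± 12.3 (LFC 1.88, SE 0.41, adjusted p 0.00466). With Dex it was higher in GRD+L/D+L than in GRwt/wt (LFC 1.84, SE 0.40, adjusted p 0.0179). The call in GRL/L vehicle was lost without GRL/L vehicle replicate 3 (adjusted p 0.0594), and that with Dex without GRD+L/D+L Dex replicate 1 (0.0558) or GRwt/wt Dex replicate 1 (0.067) or 3 (0.0882). With only the genotypes compared, the Egr3 calls in GRD+L/D+L were lost in vehicle (adjusted p 0.0506) and with Dex (0.12).
Ccn2, a matrix-associated growth factor that SRF and YAP switch on, was lower. It measured 69.1 ± 17.9 CPM in GRwt/wt vehicle and 23.9 ± 4.05 in GRL/L vehicle (LFC -1.53, SE 0.33, adjusted p 0.00323). With Dex, it measured 129 ± 30.6 CPM in GRwt/wt, 29.3 ± 7.67 in GRL/L (LFC -2.14, SE 0.33, adjusted p 0.0021), whereas GRD+L/D+L had 41.9 ± 12.7 (LFC -1.62, SE 0.33, adjusted p 0.0106). Both calls in GRL/L held in all 30 alternative fits. That in GRD+L/D+L was lost without GRwt/wt Dex replicate 3 (adjusted p 0.0553) and with only the genotypes compared (0.13).
Gadd45b, a stress-response gene, was lower in GRL/L Dex, with 15.6 ± 1.63 CPM against 31.5 ± 10.4 in GRwt/wt Dex (LFC -1.02, SE 0.24, adjusted p 0.0225). It was not called without GRL/L Dex replicates 1, 2 or 3 (adjusted p 0.0941, 0.0619 and 0.0818) or without GRwt/wt Dex replicate 1 (0.107). Nor was it called with only the genotypes compared (adjusted p 0.097) or after the GC and length correction (LFC -0.72, adjusted p 0.0275).

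Of the 18 AP-1 targets, 3 were called in GRL/L vehicle, beside 7.78% of all tested genes, and with Dex 1 was called in GRL/L, beside 2.59%, and 1 in GRD+L/D+L, beside 2.75%. Over the alternatives these counts ranged from 1 to 3, from 1 to 2 and from 0 to 4, and GRD+L/D+L vehicle went from 0 to as many as 3 (without GRwt/wt vehicle replicate 2). Here, too, the share of all tested genes called in those fits is not given. Timp1 and Plaur were among those called lower in GRL/L vehicle. Timp1, an inhibitor of matrix metalloproteinases, was at 316 ± 109 CPM in GRwt/wt vehicle and 139 ± 50.8 in GRL/L vehicle (LFC -1.19, SE 0.38, adjusted p 0.032). The Timp1 call was lost without GRL/L vehicle replicate 1 or 2 (adjusted p 0.0955 and 0.133) or without GRwt/wt vehicle replicate 1 or 2 (0.0777 and 0.0807), and the LFC was -0.59 (adjusted p 0.286) with the GC and length correction. Plaur, the urokinase receptor, which was named after its value was seen because the naming rule did not reach it, was at 17.4 ± 9.86 and 8.03 ± 0.677 CPM in the same groups (LFC -1.12, SE 0.34, adjusted p 0.0264). Its LFC was -0.54 (adjusted p 0.175) without GRwt/wt vehicle replicate 3, and the call was also lost without any 1 of the GRL/L vehicle libraries (adjusted p 0.0567 to 0.0851). After the GC and length correction the LFC of Plaur was -0.77 (adjusted p 0.152). A fit of only the genotypes compared also lost the vehicle calls of Timp1 (adjusted p 0.0589), Plaur (0.0784), Maff (0.0754) and Rps6ka1 (0.21).
With Dex, Il6, the interleukin-6 gene, was called higher in GRD+L/D+L than in GRwt/wt (adjusted p 0.0412) from very few reads, namely 28 counts over the 3 GRD+L/D+L libraries and 2 over the 3 GRwt/wt libraries. Scaled by library totals, the ratio was 14.9, with an exact 95% interval of 3.75 to 129 that covers counting error only, and the call was lost without any 1 of 12 libraries.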

How the data were processed

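RNA-seq was performed on 23 MEF libraries (Illumina TruSeq, NovaSeq). Per the submitters' processing notes, reads were aligned to mm10 with HISAT2 2.1.0, and the authors deposited raw read counts per gene, made with featureCounts 2.0.0. The strand setting was not given in the sources used here. Of 55487 identifiers, 55227 matched GENCODE M21, which supplied symbols, exon lengths and positions.

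From these counts, genes were kept with filterByExpr (15748 genes), scaled by TMM and tested in edgeR 4.0.16 (R 4.3.3, quasi-likelihood test, prior count 0.125), in 1 fit over all libraries with 8 group means. Adjusted p-values are Benjamini-Hochberg over all tested genes, per comparison, and they measure the spread between cultures of different mice. The 13 comparisons were Dex against vehicle in each genotype, the differences of these responses from that of GRwt/wt, and, within vehicle and within Dex, every mutant against GRwt/wt. CPM values use TMM-scaled totals. Alternatives were RLE scaling, no expression filter, DESeq2 1.42.0, adjusted p alone, a per-library correction for transcript GC content and length, a replicate block, a fit of only the genotypes compared, and leaving out each library. The fits were tested on simulated counts.

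Libraries with the same number deviated together in GRL/L (correlations 0.322, 0.644 and 0.631) and in GRD+L/D+L (0.887, 0.788 and 0.652). In GRwt/wt only the libraries of replicate 1 did (0.548, against 0.0266 and -0.0265), and in GRD/D the values were 0.283 and -0.199. Across genotypes the numbers are different mice.

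The members and lists were chosen with earlier results of these data known. All 8 members are named. From each list, up to 2 called genes are named per comparison and direction, those of largest LFC, with Plaur added after its value was seen. Some genes that these rules would name are not reported here. Promoters were read from RefSeq. Depth (16452539 to 23117080 counts) gave each member at least 27 counts per library. The closest replicates still differed by a chi-square per gene of 8.97, so none was a duplicate.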

Additional observations from a re-analysis of the deposited data

Results flagged for a closer look

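The Dex response of Jund stood out because all libraries of a genotype moved one way and those of another genotype the opposite way. In GRwt/wt all 3 Dex libraries were below the 3 vehicle libraries, and in GRD/D all 3 Dex libraries were above both vehicle libraries. The difference of the LFCs (GRD/D minus GRwt/wt) was 0.67, with an adjusted p of 0.688 by the quasi-likelihood test of edgeR, so it did not pass the test across all genes. It was 0.45 without GRwt/wt vehicle replicate 1, 0.30 after the correction for transcript GC content and length, and 0.72 with a replicate block. The adjusted p lay between 0.248 and 1.0 over the alternatives.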

How the results depend on the processing

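In 10 of the 13 comparisons, 0 AP-1 genes were called under every alternative. In GRL/L against GRwt/wt in vehicle, the count of 1 (Jund) fell to 0 with RLE scaling, without the expression filter, with DESeq2 and without both GRwt/wt vehicle libraries that stand apart, an alternative chosen after seeing the data that leaves 1 GRwt/wt vehicle library, assumed to vary like the other groups. With the GC and length correction it stayed at 1, with Fos in place of Jund. In GRD+L/D+L against GRwt/wt in vehicle, the count of 1 (Atf3) fell to 0 with RLE scaling, without the filter, with the GC and length correction, with the replicate block, with only the genotypes compared and without both libraries, and it was 2 (Atf3 and Jund) by adjusted p alone. Leaving out 1 library at a time gave 0 to 1 calls in each of these and in GRL/L against GRwt/wt with Dex. The cause was not tested.

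With the replicate block, the Atf3 value in GRD+L/D+L vehicle was -2.69 (adjusted p 0.0717) and that of Jund in GRL/L vehicle -1.02 (adjusted p 0.00219), and the block changed no other call of an AP-1 gene.

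Signs that turned belonged to values that had not passed the test. For Dex in GRwt/wt, Jun was 0.016 with RLE scaling, 0.0043 without the filter, 0.017 with DESeq2, 0.21 with the GC and length correction and 0.45 without both libraries. Fosl1 was 0.21 and Junb 0.17 with that correction, and Junb was 0.12 and Atf3 0.73 without both libraries. Without both, Atf3 was also 1.44 in GRD/D vehicle and 1.06 in GRL/L vehicle, and the differences of its Dex response were -0.29 (GRD/D), -0.63 (GRL/L) and -0.88 (GRD+L/D+L). With 1 library left out, the LFC of Dex in GRwt/wt ranged from -0.35 to 0.58 for Fos, -0.13 to 0.35 for Fosb, -0.32 to 0.20 for Fosl1, -0.31 to 0.31 for Jun, -0.50 to 0.073 for Junb and -2.71 to 0.73 for Atf3. Atf3 ranged from -1.15 to 1.45 in GRD/D vehicle and from -1.53 to 1.06 in GRL/L vehicle, and the differences of its Dex response from -0.29 to 3.16 (GRD/D), -0.62 to 2.82 (GRL/L) and -0.88 to 2.56 (GRD+L/D+L). Fos ranged from -0.35 to 0.57 in GRD/D Dex and from -0.024 to 0.88 in GRD+L/D+L Dex.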
